A study of Homo sapiens with 15 samples.

Results

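The genes described here are 38 genes of glucose transport, glycolysis, lactate and pyruvate handling, the pentose phosphate pathway and the response to low oxygen, taken by symbol from a list. All 38 were found by Ensembl ID among the 57736 rows of the count table, and 37 passed the filter on low counts. PDK4 did not, with 17 counts over the 15 libraries. The cells were IMR90, a line of human fetal lung fibroblasts, and expression was measured by QuantSeq, a method that sequences the 3′ end of transcripts. The 5 groups had 3 libraries each. Wild-type add-back cells expressed RAS from a retrovirus, received an siRNA against METTL14 and were given lentiviral wild-type METTL14. R298P add-back cells differed in that the lentivirus carried METTL14 with the R298P substitution. Knockdown cells expressed RAS and received the METTL14 siRNA with a vector in place of METTL14. siControl RAS cells expressed RAS and received a non-targeting siRNA. Control cells carried a vector retrovirus and the non-targeting siRNA. The siRNA was first given on day 4 after the retrovirus and again on the following day, and RNA was taken 48 hours later. All cells were transfected, and no METTL14 siRNA was given without RAS. The labels do not say whether siControl RAS or control cells were given a lentivirus, nor whether the added METTL14 can be targeted by the siRNA. The labels use the words knockout and knock-in for the siRNA and the lentivirus. They do not state that replicates were separate cultures, so p-values measure only the spread between these libraries, which may be technical.

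Glycolysis splits glucose into pyruvate in a chain of cytosolic steps and makes ATP without oxygen. The pyruvate is either reduced to lactate and exported or carried into mitochondria, where pyruvate dehydrogenase feeds it to the citric acid cycle. HIF is a transcription factor made of an alpha subunit (HIF1A or EPAS1) and ARNT. In the presence of oxygen, prolyl hydroxylases of the EGLN family mark the alpha subunit, VHL binds it and the protein is degraded, so that HIF activity depends on protein stability as well as on transcript level. Many glycolytic genes are known HIF targets. Oncogenic RAS makes normal fibroblasts senescent, that is, permanently arrested but metabolically active. METTL14 pairs with METTL3 in the enzyme that places N6-methyladenosine marks on RNA, and R298P impairs this enzyme.

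Total counts ran from 4917661 to 7763084 per library with a median of 5853195, so that 1 count was worth between 0.129 and 0.203 CPM. Values below are CPM, which are counts scaled to library size with TMM factors. The value of 1 count and the sums of cell type markers were scaled to total counts alone, without TMM factors. A gene was called at an adjusted p under 0.05 in edgeR's quasi-likelihood test. Since tags come from transcript ends, a long gene gives no more of them than a short gene, and CPM is not divided by length. METTL14 itself had 508, 564 and 564 CPM in wild-type add-back libraries, 892, 907 and 1038 in R298P add-back libraries, 9.35, 4.94 and 3.94 in knockdown libraries, 26.1, 19.3 and 20.5 in siControl RAS libraries and 19.1, 21.2 and 23.3 in control libraries, so the labels and the targeted gene went together and both add-backs were far above the level in siControl RAS libraries. All 14 fibroblast markers were detected, with summed levels of 22030 to 22482 CPM in knockdown, 25969 to 27241 in siControl RAS and 13113 to 13323 in control libraries. The 14 epithelial markers summed to 85.9 to 98.8 CPM in knockdown, 53.2 to 67.9 in siControl RAS and 147 to 159.9 in control libraries, with CDH1, KRT5, KRT14, SFTPC, NKX2-1 and SCGB1A1 at 0 throughout. The 7 endothelial markers found summed to 40.7 to 45.4 CPM in knockdown, 34.8 to 36.6 in siControl RAS and 15.8 to 26.4 in control libraries, with CDH5 and ERG at 0. The 8 leukocyte markers summed to 6.05 to 14.3 CPM in knockdown, 13.4 to 22.6 in siControl RAS and 3.13 to 8.65 in control libraries, with CD3E, LYZ and TYROBP among those at 0. The part of these differences in the results below was not tested. Knockdown replicate 1 stood apart on the third principal component of all genes (54.4, with the other libraries between -25.6 and 9.88). Without it, 18 members were called between knockdown and siControl RAS cells and 18 between knockdown and control cells, against 21 and 22 with it.

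Most of the 38 genes differed between siControl RAS and control cells, and not in one direction. The labels do not say whether these groups also differ in a lentivirus. In siControl RAS cells 19 members rose and 8 fell relative to control cells, of 37 tested. The share called among all 13516 tested genes was 45.9% (24.0% higher, 21.9% lower). The members that rose included HIF1A, the prolyl hydroxylase gene EGLN3, the glucose transporter SLC2A3, the PFKFB3 and PFKFB4 regulators of glycolysis, and the minor isoenzyme genes HK2, ALDOC and ENO2. The members that fell included GAPDH, ALDOA, LDHB, the HIF alpha subunit EPAS1, and TKT and TALDO1 of the pentose phosphate pathway. The median log2 change was 0.25 over the members and 0.00 over all genes. The 3 libraries of each group did not overlap for 29 of 37 members, against 54.2% of all genes. A change in a bulk library does not tell fewer cells of a kind from less RNA per cell.

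In knockdown relative to siControl RAS cells, 19 members were lower and 2 were higher, of 37 tested. The share called among all tested genes was 15.5% (7.47% higher, 8.06% lower). These groups differ in the siRNA, and the labels do not say whether they also differ in a lentiviral vector. The parts of siRNA and vector in this comparison cannot be told apart. PFKFB4, HIF1A, PDK3, ALDOC, SLC2A3, PFKFB3 and EGLN3 fell most, with log2 changes of -1.34 to -0.95, and EPAS1 and PKM rose. The median log2 change was -0.20 over the members and 0.00 over all genes, and the libraries of both groups did not overlap for 25 of 37 members, against 30.0% of all genes. Both comparisons use the same siControl RAS libraries, so a value high or low in those libraries enters both, with opposite sign. Values of both are therefore given side by side, and no count of genes that moved in opposite directions is drawn from them. In the leave-one-out fits between 16 and 19 members were called in this comparison, and between 26 and 27 for siControl RAS against control cells.

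**Figure D1:**
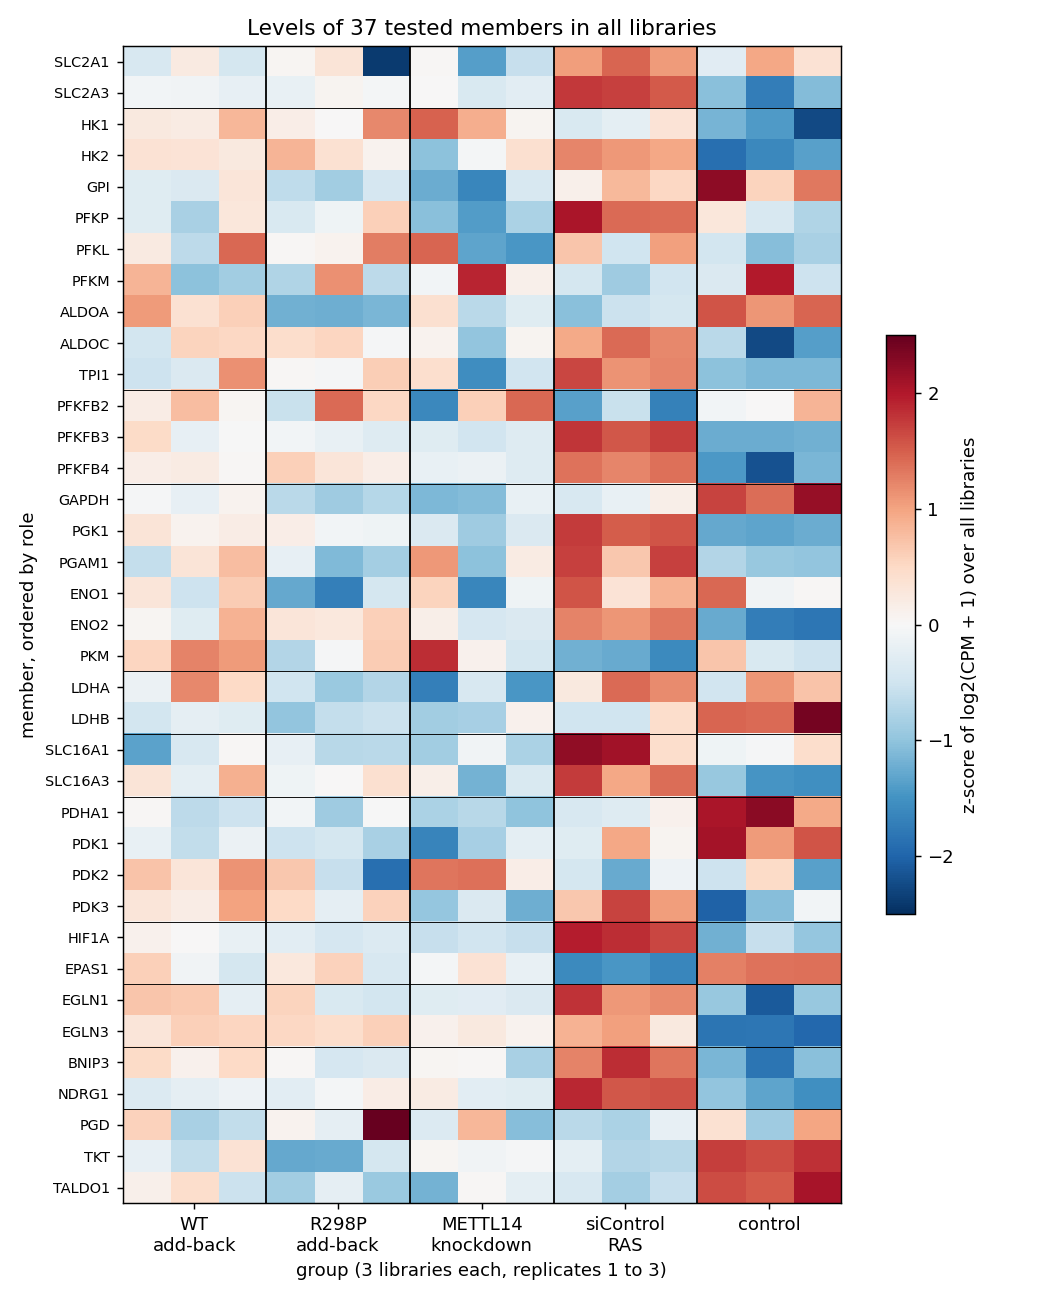
Each row is 1 of the 37 tested members, ordered by role, and each column 1 library, with colour for the z-score of log2(CPM + 1) of that member over all libraries. The siControl RAS columns hold the highest values of HIF1A, SLC2A3, PFKFB3, PFKFB4 and NDRG1, and the lowest of EPAS1.

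Members' promoters were searched for the core letters of the hypoxia response element, to which HIF binds, since a number of members moved together. The window was 250 bases before to 50 bases after the transcription start in RefSeq (GRCh38.p14), the letters were ACGTG and GCGTG, and both strands were read, so that CACGTG counts as a match on each strand. Of 34 members with an entry (SLC2A3, PFKFB2, SLC16A1 and NDRG1 have none here) 22 held at least 1 match, or 64.7%, against 48.4% of 35116 promoters of the same length. The share was 62.5% among 16 members that rose in siControl RAS cells (10 of 16), 62.5% among 8 that fell (5 of 8) and 77.8% among 9 that were not called (7 of 9). No limit to tested genes or to 1 entry per symbol was set for the 35116 promoters. For each member only the first entry listed was kept, which need not be its main start. Shares of members and of all promoters therefore come from unlike sets. A match is a description of the letters and not a site. Shown are 5 promoters chosen after their matches were counted: 3 of members that rose with RAS and hold several matches, that of LDHA, which holds 6 and was not called with RAS, and that of EGLN3, which rose most and held no match in this window. BNIP3 (chr10:131981874-131982173, minus strand) and LDHA (chr11:18394313-18394612, plus strand) held 6 matches each, ALDOC (chr17:28576846-28577145, minus strand) held 5 and HK2 (chr2:74833877-74834176, plus strand) held 3. The EGLN3 window is chr14:33951025-33951324, minus strand. Capitals mark the matches, read 5′ to 3′ along the gene; a match on the opposite strand appears as CACGT or CACGC.
BNIP3 promoter: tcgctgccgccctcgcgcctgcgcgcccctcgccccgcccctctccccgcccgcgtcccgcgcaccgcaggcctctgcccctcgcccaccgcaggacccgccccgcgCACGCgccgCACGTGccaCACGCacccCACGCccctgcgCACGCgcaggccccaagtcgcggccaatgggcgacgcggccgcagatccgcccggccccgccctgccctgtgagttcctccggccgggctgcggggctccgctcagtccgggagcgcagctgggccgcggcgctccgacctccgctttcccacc
LDHA promoter: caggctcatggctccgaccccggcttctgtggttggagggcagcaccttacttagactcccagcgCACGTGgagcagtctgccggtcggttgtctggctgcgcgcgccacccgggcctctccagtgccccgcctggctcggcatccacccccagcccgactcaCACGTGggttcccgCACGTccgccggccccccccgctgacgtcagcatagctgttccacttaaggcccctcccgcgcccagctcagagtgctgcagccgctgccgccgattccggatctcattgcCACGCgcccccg
ALDOC promoter: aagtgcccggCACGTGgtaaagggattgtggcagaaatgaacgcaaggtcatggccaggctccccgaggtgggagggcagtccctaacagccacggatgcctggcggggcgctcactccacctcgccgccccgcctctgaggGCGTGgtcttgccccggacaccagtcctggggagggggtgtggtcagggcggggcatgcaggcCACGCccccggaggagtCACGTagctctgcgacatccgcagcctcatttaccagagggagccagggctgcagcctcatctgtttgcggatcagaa
HK2 promoter: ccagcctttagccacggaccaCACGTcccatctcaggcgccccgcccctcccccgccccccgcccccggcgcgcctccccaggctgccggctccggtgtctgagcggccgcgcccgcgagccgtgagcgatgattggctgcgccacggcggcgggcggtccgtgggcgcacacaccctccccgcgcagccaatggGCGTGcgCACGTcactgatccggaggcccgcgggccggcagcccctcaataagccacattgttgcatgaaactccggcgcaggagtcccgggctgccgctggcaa
EGLN3 promoter: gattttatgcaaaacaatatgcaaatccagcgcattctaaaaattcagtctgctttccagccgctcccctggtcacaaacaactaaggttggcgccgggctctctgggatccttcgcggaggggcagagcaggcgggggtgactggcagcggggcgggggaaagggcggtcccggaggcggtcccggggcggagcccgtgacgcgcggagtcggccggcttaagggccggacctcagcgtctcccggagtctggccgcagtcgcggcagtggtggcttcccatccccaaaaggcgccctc

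The genes of the HIF system moved in different directions. HIF1A had 282, 291 and 280.5 CPM in knockdown libraries, 692, 662 and 624 in siControl RAS libraries and 225, 281 and 245 in control libraries. All siControl RAS libraries lay above every other library of these groups. HIF1A, the oxygen-regulated subunit present in most tissues, was 2.63-fold higher in siControl RAS than in control cells (log2 change 1.40 ± 0.07 SE, edgeR adjusted p = 1.46e-17) and 2.32-fold lower in knockdown than in siControl RAS cells (log2 change -1.21 ± 0.07 SE, edgeR adjusted p = 6.15e-15). EPAS1 had 177, 186 and 175 CPM in knockdown libraries, 148, 150.4 and 147 in siControl RAS libraries and 207, 209 and 209.8 in control libraries. The order was the reverse of that of HIF1A, with siControl RAS libraries lowest and control libraries highest, and no library of 1 group overlapped another group. EPAS1, which encodes HIF-2 alpha, fell with RAS (log2 change -0.49 ± 0.08 SE, edgeR adjusted p = 2.69e-06) and rose with knockdown (log2 change 0.27 ± 0.08 SE, edgeR adjusted p = 0.0133). The call with knockdown was lost when leaving out knockdown replicate 2 (edgeR adjusted p = 0.055). The ratio of HIF1A to EPAS1 CPM within a library was 1.59 ± 0.0210 in knockdown, 4.44 ± 0.222 in siControl RAS and 1.2 ± 0.131 in control libraries (SD, n = 3 each).

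EGLN1 had 64.4, 64.7 and 63.7 CPM in knockdown libraries, 95.5, 83.4 and 84.8 in siControl RAS libraries and 57.2, 46.0 and 57.1 in control libraries. EGLN1 encodes PHD2, the main hydroxylase that marks HIF at normal oxygen. Its siControl RAS libraries lay above those of both other groups. EGLN1 rose with RAS (log2 change 0.72 ± 0.12 SE, edgeR adjusted p = 4.95e-06) and fell with knockdown (log2 change -0.45 ± 0.12 SE, edgeR adjusted p = 0.00595). EGLN3 had 6.50, 7.56 and 6.40 CPM in knockdown libraries, 14.8, 17.4 and 7.49 in siControl RAS libraries and 0.156, 0.165 and 0 in control libraries. EGLN3 encodes PHD3, a hydroxylase that is itself a HIF target. It was near absent from control cells, with 2 counts over 3 libraries, and the ratio of normalised counts was 123 for siControl RAS over control cells, with an exact 95% interval of 33.8 to 1024 that covers counting error only (edgeR adjusted p = 4.37e-12). The fitted log2 change of 6.68 depends on the prior count. EGLN3 overlaps SPTSSA on the same strand, away from its 3′ end, and SPTSSA held 2472 counts against 709 in EGLN3 over all libraries. In knockdown cells EGLN3 was lower (log2 change -0.95 ± 0.33 SE, edgeR adjusted p = 0.0452), but siControl RAS replicate 3, at 7.49 CPM, lay within the range of the knockdown libraries. That call was lost when leaving out siControl RAS replicate 1 or replicate 2 or any 1 knockdown replicate (edgeR adjusted p 0.0733 to 0.249), and under 6 of 8 other settings.

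The hypoxia-induced genes BNIP3 and NDRG1 both rose with RAS and both fell with knockdown. NDRG1 had 1134, 995 and 989 CPM in knockdown libraries, 1788, 1633 and 1655 in siControl RAS libraries and 818, 748 and 706 in control libraries. Every siControl RAS library was above every library of the other groups. NDRG1, a stress-responsive cytoplasmic protein gene, was 2.23-fold higher with RAS (log2 change 1.16 ± 0.07 SE, edgeR adjusted p = 7.85e-17) and 1.63-fold lower with knockdown (log2 change -0.70 ± 0.06 SE, edgeR adjusted p = 2.32e-10). BNIP3 had 186, 186 and 156 CPM in knockdown libraries, 237, 268 and 242 in siControl RAS libraries and 146, 127 and 149 in control libraries. BNIP3 encodes a mitochondrial protein that promotes removal of mitochondria by autophagy, and its groups did not overlap either. It rose with RAS (log2 change 0.82 ± 0.09 SE, edgeR adjusted p = 6.77e-10) and fell with knockdown (log2 change -0.50 ± 0.09 SE, edgeR adjusted p = 4.15e-05). Rows of BNIP3 pseudogenes hold 6895 counts, against 16564 in BNIP3 itself, so its level is uncertain. With those rows added the log2 changes were 0.86 and -0.54, and no call of BNIP3 changed in any of 8 comparisons.

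**Figure D2:**
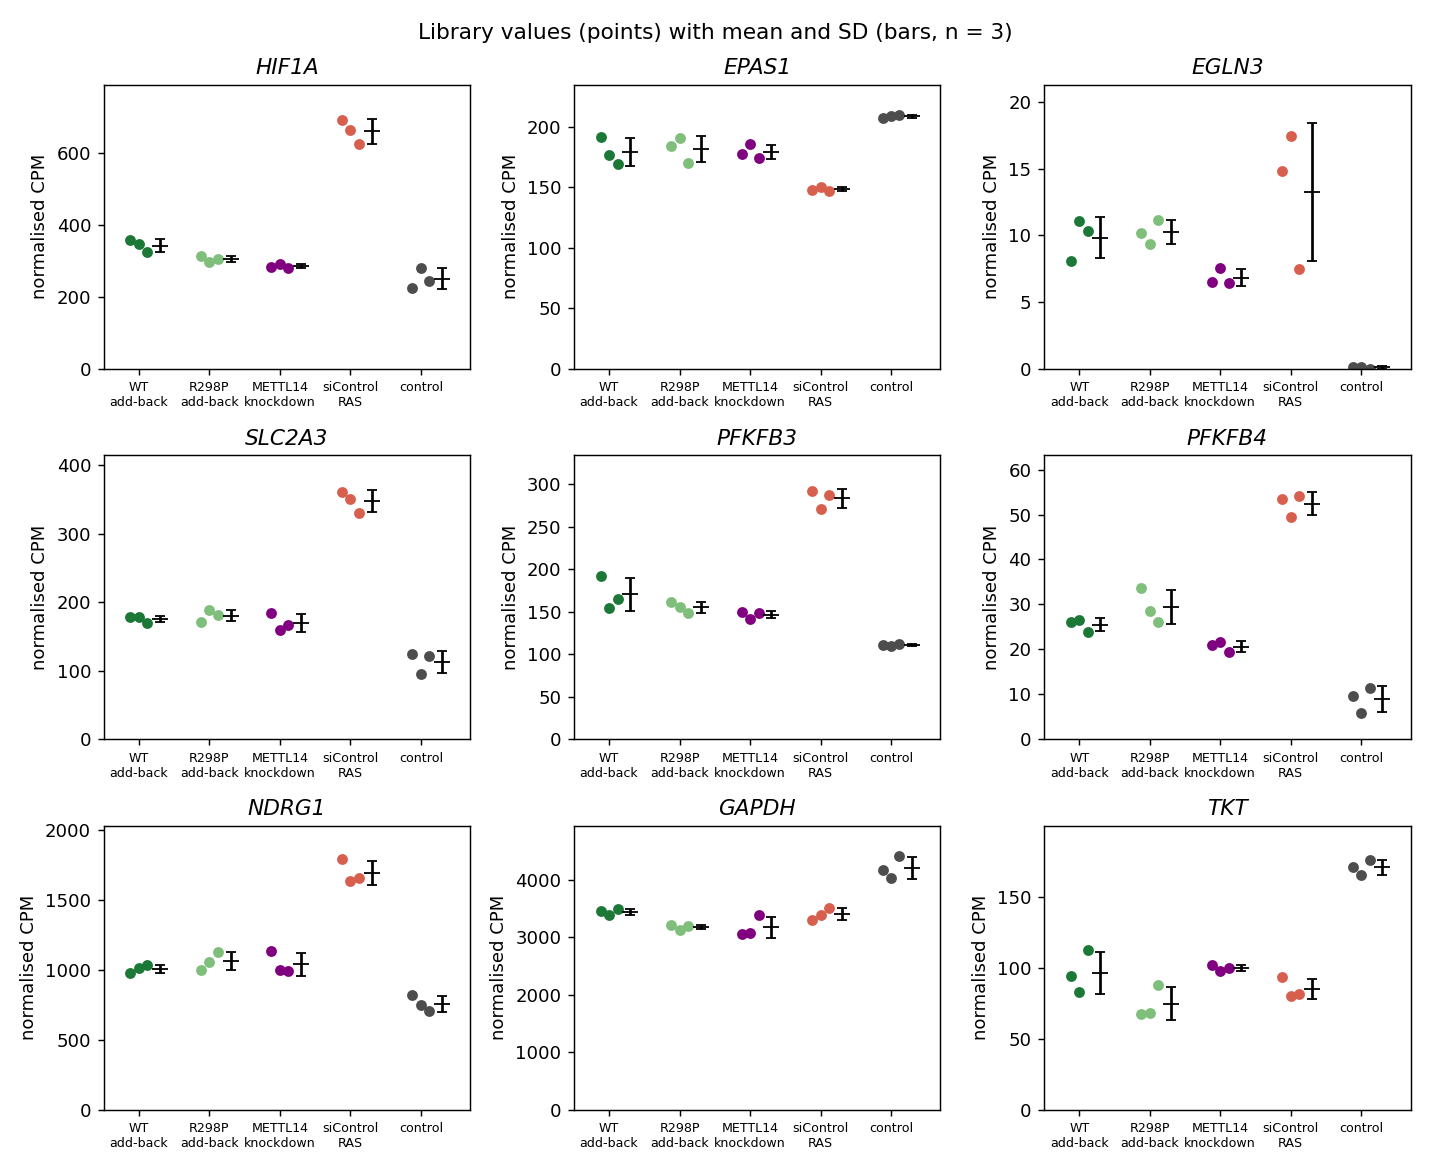
Points are normalised CPM of single libraries for 9 members in the 5 groups, and bars give the mean and SD of 3 libraries, on linear axes that start at 0. siControl RAS libraries are highest for HIF1A, SLC2A3, PFKFB3, PFKFB4 and NDRG1 and lowest for EPAS1, and control libraries are highest for GAPDH and TKT.

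Of the glucose transporters, SLC2A3 changed and SLC2A1 did not pass the test. SLC2A3 had 185, 159 and 166 CPM in knockdown libraries, 361, 351 and 330.5 in siControl RAS libraries and 124, 95.04 and 121 in control libraries. The siControl RAS libraries stood above all others, and the knockdown libraries above the control libraries. SLC2A3 (GLUT3), a high-affinity glucose transporter, was 3.07-fold higher with RAS (log2 change 1.62 ± 0.09 SE, edgeR adjusted p = 4.61e-17) and 2.04-fold lower with knockdown (log2 change -1.03 ± 0.09 SE, edgeR adjusted p = 3.72e-11). SLC2A1 had 246, 221 and 235 CPM in knockdown libraries, 266, 275 and 267 in siControl RAS libraries and 241, 265 and 253 in control libraries. SLC2A1 (GLUT1), the widespread basal glucose transporter, lay in a narrow range, with a log2 change of 0.09 (95% interval -0.07 to 0.25) with RAS and -0.20 (-0.36 to -0.04) with knockdown. The SLC2A1 to SLC2A3 ratio of CPM was 1.38 ± 0.0416 in knockdown, 0.776 ± 0.0355 in siControl RAS and 2.27 ± 0.452 in control libraries (SD, n = 3 each), so SLC2A3 tags outnumbered SLC2A1 tags in siControl RAS libraries alone of these 3 groups.

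At the entry of glycolysis, the inducible hexokinase moved more than the housekeeping one. HK2 had 55.1, 73.2 and 83.2 CPM in knockdown libraries, 105, 101 and 97.7 in siControl RAS libraries and 42.8, 46.5 and 50.1 in control libraries. All groups were separate, with siControl RAS highest. HK2, a hexokinase of muscle, fat and tumour cells, rose with RAS (log2 change 1.13 ± 0.12 SE, edgeR adjusted p = 2.28e-09) and fell with knockdown (log2 change -0.52 ± 0.12 SE, edgeR adjusted p = 0.00219). HK1 had 172, 161 and 147 CPM in knockdown libraries, 139.5, 142 and 152 in siControl RAS libraries and 128, 124 and 113 in control libraries. HK1, the hexokinase of most tissues, rose slightly with RAS (log2 change 0.25 ± 0.09 SE, edgeR adjusted p = 0.0213), a call lost when leaving out control replicate 3 or siControl RAS replicate 3 (edgeR adjusted p 0.0896 to 0.118), and its change with knockdown, 0.15 (95% interval -0.03 to 0.33), did not pass the test. GPI had 303, 293 and 326 CPM in knockdown libraries, 341, 362 and 353 in siControl RAS libraries and 408, 354 and 378 in control libraries. GPI, which turns glucose 6-phosphate into fructose 6-phosphate, was not called with RAS (-0.11) or with knockdown (-0.19, edgeR adjusted p = 0.0527), and was called with knockdown under 5 of 8 other settings.

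Phosphofructokinase, the main control point of glycolysis, is built of PFKP, PFKL and PFKM subunits. With all libraries in the fit, only the transcript of PFKP was called in these comparisons. PFKP had 122, 115 and 126 CPM in knockdown libraries, 192, 175 and 175 in siControl RAS libraries and 148, 134 and 127 in control libraries. The siControl RAS libraries were highest and the knockdown libraries lowest. PFKP, the platelet type, rose with RAS (log2 change 0.41 ± 0.09 SE, edgeR adjusted p = 3.09e-04) and fell with knockdown (log2 change -0.58 ± 0.09 SE, edgeR adjusted p = 9.72e-06). PFKL, the liver type, ranged from 67.8 to 103 CPM over the 9 libraries of these groups. Its log2 changes were 0.25 with RAS and -0.16 with knockdown. Without knockdown replicate 1 it was called lower with knockdown (log2 change -0.38, edgeR adjusted p = 0.0474). PFKM, the muscle type, ranged from 17.6 to 27.0 CPM, with changes of -0.23 and 0.29. PFKM overlaps SENP1 on the other strand, which held 2508 counts against its own 1796. No source used here says whether counting used strand, so reads of such pairs cannot be told apart.

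The PFKFB enzymes make and break fructose 2,6-bisphosphate, the strongest activator of phosphofructokinase, and PFKFB3 and PFKFB4 showed some of the largest differences among the members. PFKFB3 had 149.8, 142 and 148 CPM in knockdown libraries, 292, 271 and 287 in siControl RAS libraries and 111, 110.2 and 112 in control libraries. The 3 groups were separate and their libraries close together. PFKFB3, whose kinase activity far exceeds its phosphatase activity, was 2.56-fold higher with RAS (log2 change 1.35 ± 0.08 SE, edgeR adjusted p = 1.32e-15) and 1.93-fold lower with knockdown (log2 change -0.95 ± 0.08 SE, edgeR adjusted p = 7.73e-11). PFKFB4 had 20.9, 21.6 and 19.4 CPM in knockdown libraries, 53.5, 49.5 and 54.2 in siControl RAS libraries and 9.53, 5.76 and 11.5 in control libraries. The same order held, with no overlap. PFKFB4 was 5.86-fold higher with RAS (log2 change 2.55 ± 0.20 SE, edgeR adjusted p = 5.67e-13) and 2.54-fold lower with knockdown (log2 change -1.34 ± 0.18 SE, edgeR adjusted p = 1.08e-06). PFKFB2, the heart isoform, had 161 counts over all 15 libraries. Its log2 changes of -1.52 ± 0.83 SE with RAS and 1.65 ± 0.83 SE with knockdown did not pass the test, and a difference was not detectable at this depth. PFKFB2 overlaps YOD1 on the other strand, which held 941 counts.

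The aldolases, which split fructose 1,6-bisphosphate, went apart. ALDOC had 14.0, 7.87 and 13.8 CPM in knockdown libraries, 21.7, 27.5 and 24.6 in siControl RAS libraries and 9.38, 3.79 and 6.32 in control libraries. The siControl RAS libraries were all above the others, while knockdown and control libraries overlapped. ALDOC, the brain-type aldolase, was 3.76-fold higher with RAS (log2 change 1.91 ± 0.29 SE, edgeR adjusted p = 1.14e-06) and 2.07-fold lower with knockdown (log2 change -1.05 ± 0.28 SE, edgeR adjusted p = 0.00641), and the knockdown call was lost when leaving out knockdown replicate 2 (edgeR adjusted p = 0.0613). ALDOA had 913, 831 and 858 CPM in knockdown libraries, 804, 841 and 847 in siControl RAS libraries and 1012, 971 and 1001 in control libraries. ALDOA, the muscle and general form, was lower in every siControl RAS library than in any control library (log2 change -0.26 ± 0.06 SE, edgeR adjusted p = 2.41e-04), and its change with knockdown was 0.06 (95% interval -0.05 to 0.18). TPI1 had 802, 667 and 738 CPM in knockdown libraries, 902, 856 and 864 in siControl RAS libraries and 702, 695 and 694 in control libraries. TPI1, which interconverts the triose phosphates, rose with RAS (log2 change 0.33 ± 0.07 SE, edgeR adjusted p = 1.04e-04) and fell with knockdown (log2 change -0.25 ± 0.07 SE, edgeR adjusted p = 0.00733). Its knockdown call was lost when leaving out knockdown replicate 2 (edgeR adjusted p = 0.0761).

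In lower glycolysis PGK1 and ENO2 rose with RAS while GAPDH fell. GAPDH had 3057, 3073 and 3392 CPM in knockdown libraries, 3311, 3392 and 3519 in siControl RAS libraries and 4179, 4044 and 4421 in control libraries. Each siControl RAS library was below each control library, and knockdown libraries overlapped those of siControl RAS. GAPDH, which oxidises glyceraldehyde 3-phosphate and often serves as a reference gene, was 1.24-fold lower with RAS (log2 change -0.31 ± 0.05 SE, edgeR adjusted p = 4.25e-06), with -0.10 for knockdown over siControl RAS (95% interval -0.20 to -0.00). PGK1 had 508, 459 and 508 CPM in knockdown libraries, 762, 728 and 736 in siControl RAS libraries and 427, 422 and 428 in control libraries. PGK1, the first ATP-making enzyme of the pathway, was highest in every siControl RAS library and lowest in control libraries. It rose with RAS (log2 change 0.80 ± 0.06 SE, edgeR adjusted p = 2.95e-13) and fell with knockdown (log2 change -0.59 ± 0.06 SE, edgeR adjusted p = 2.81e-09). ENO2 had 124, 102 and 104 CPM in knockdown libraries, 177, 169.5 and 182 in siControl RAS libraries and 77.7, 66.4 and 64.7 in control libraries. ENO2, the neuronal enolase, showed the same order, with 2.53-fold higher values with RAS (log2 change 1.34 ± 0.11 SE, edgeR adjusted p = 7.94e-12) and 1.60-fold lower values with knockdown (log2 change -0.68 ± 0.11 SE, edgeR adjusted p = 2.23e-05).

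ENO1 had 1918, 1664 and 1836 CPM in knockdown libraries, 2048, 1890.1 and 1957 in siControl RAS libraries and 2030.2, 1839 and 1854 in control libraries. ENO1, the common enolase, overlapped between groups and was not called, with log2 changes of 0.04 (95% interval -0.08 to 0.16) with RAS and -0.12 (-0.24 to -0.00) with knockdown. The ENO1 to ENO2 ratio of CPM was 16.5 ± 1.06 in knockdown, 11.2 ± 0.413 in siControl RAS and 27.5 ± 1.27 in control libraries (SD, n = 3 each). PGAM1, a phosphoglycerate mutase, rose by a small amount with RAS (log2 change 0.20 ± 0.06 SE, edgeR adjusted p = 0.00695) and was not called with knockdown (-0.11). PGAM1 had 699, 614 and 662 CPM in knockdown libraries, 727, 682 and 727 in siControl RAS libraries and 625, 616.5 and 615 in control libraries. PKM had 2755, 2469 and 2384 CPM in knockdown libraries, 2274, 2264 and 2218 in siControl RAS libraries and 2563, 2395 and 2373 in control libraries. PKM, the pyruvate kinase of most tissues, whose splice forms share a 3′ end and are counted together here, was higher in every knockdown than in any siControl RAS library (log2 change 0.17 ± 0.05 SE, edgeR adjusted p = 0.0268), and its change with RAS was -0.12 (edgeR adjusted p = 0.0754). The call with knockdown was lost when leaving out any 1 siControl RAS replicate or knockdown replicate 1 (edgeR adjusted p 0.0533 to 0.214). It was also lost in a fit of the compared groups alone (edgeR adjusted p = 0.0609). With RAS, PKM was called lower with upper-quartile factors (edgeR adjusted p = 0.0218) and with limma-voom (limma-voom adjusted p = 0.0225). The 15 glycolytic enzyme members together summed to 11152 ± 479.5 CPM in knockdown, 11869 ± 128 in siControl RAS and 12159 ± 323 in control libraries (SD, n = 3 each), a sum that GAPDH, ENO1 and PKM lead.

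Of the lactate dehydrogenases, LDHB fell with RAS and LDHA fell slightly with knockdown. LDHB had 215, 217 and 250.5 CPM in knockdown libraries, 228, 228 and 264 in siControl RAS libraries and 308, 306 and 356 in control libraries. The siControl RAS libraries were below the control libraries and overlapped the knockdown libraries. LDHB, the heart-type subunit, was lower with RAS (log2 change -0.43 ± 0.08 SE, edgeR adjusted p = 2.98e-05), and its change with knockdown was -0.08 (95% interval -0.24 to 0.09). LDHA had 1513, 1628 and 1535 CPM in knockdown libraries, 1686, 1801 and 1777 in siControl RAS libraries and 1621, 1769.8 and 1731 in control libraries. LDHA, the subunit that favours lactate formation, changed by 0.04 with RAS (95% interval -0.07 to 0.15) and was lower with knockdown (log2 change -0.17 ± 0.05 SE, edgeR adjusted p = 0.0243), with no overlap. That call was lost when leaving out siControl RAS replicate 2 or replicate 3 or knockdown replicate 1 or replicate 3 (edgeR adjusted p 0.086 to 0.116). It was also lost with upper-quartile factors, with no filter and in a fit of the compared groups alone (edgeR adjusted p 0.0658 to 0.0908). Both monocarboxylate transporters rose with RAS and fell with knockdown. SLC16A3 had 545, 417 and 490.5 CPM in knockdown libraries, 756, 645 and 703 in siControl RAS libraries and 438, 393 and 389 in control libraries. SLC16A3 (MCT4), the exporter of lactate in glycolytic cells, rose with RAS (log2 change 0.79 ± 0.09 SE, edgeR adjusted p = 9.51e-08) and fell with knockdown (log2 change -0.53 ± 0.09 SE, edgeR adjusted p = 1.12e-04). It shares its 3′ end with CSNK1D on the other strand, which held 7318 counts against 47609 in SLC16A3. SLC16A1 had 89.8, 101 and 90.8 CPM in knockdown libraries, 141, 139 and 109 in siControl RAS libraries and 100.3, 102 and 109 in control libraries. SLC16A1 (MCT1), a transporter that works in both directions, rose with RAS (log2 change 0.33 ± 0.10 SE, edgeR adjusted p = 0.0101) although siControl RAS replicate 3 lay just below the highest control library. That call was lost when leaving out siControl RAS replicate 1 or replicate 2 (edgeR adjusted p 0.0599 to 0.0749). SLC16A1 fell with knockdown (log2 change -0.47 ± 0.10 SE, edgeR adjusted p = 0.00139), where the libraries did not overlap.

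At the step into mitochondria, PDHA1 and PDK1 fell with RAS and PDK3 rose. PDHA1 had 35.0, 35.6 and 33.5 CPM in knockdown libraries, 37.9, 38.4 and 41.9 in siControl RAS libraries and 61.7, 64.6 and 49.6 in control libraries. PDHA1, the catalytic alpha subunit of pyruvate dehydrogenase, was lower in every siControl RAS library than in any control library (log2 change -0.57 ± 0.14 SE, edgeR adjusted p = 8.81e-04), with -0.18 for knockdown over siControl RAS (95% interval -0.47 to 0.11). The PDK kinases inactivate that enzyme. PDK1 had 35.4, 44.6 and 52.5 CPM in knockdown libraries, 51.6, 73.2 and 57.0 in siControl RAS libraries and 99.5, 75.3 and 86.3 in control libraries. PDK1, known as a HIF1 target, fell with RAS (log2 change -0.53 ± 0.14 SE, edgeR adjusted p = 0.00227), unlike BNIP3 and NDRG1, and fell with knockdown too (log2 change -0.45 ± 0.14 SE, edgeR adjusted p = 0.03). Knockdown and siControl RAS libraries overlapped, and the call was lost when leaving out siControl RAS replicate 2 or knockdown replicate 1 or replicate 2 (edgeR adjusted p 0.0657 to 0.258). PDK3 had 5.49, 7.10 and 4.92 CPM in knockdown libraries, 10.8, 15.9 and 12.5 in siControl RAS libraries and 3.44, 5.27 and 7.99 in control libraries. PDK3 had no more than 234 counts in any group, and its siControl RAS libraries stood above the others. It rose with RAS (log2 change 1.23 ± 0.33 SE, edgeR adjusted p = 0.00217) and fell with knockdown (log2 change -1.15 ± 0.33 SE, edgeR adjusted p = 0.012), a call lost when leaving out siControl RAS replicate 2 or knockdown replicate 3 (edgeR adjusted p 0.0633 to 0.0761). PDK2 had log2 changes of -0.05 and 0.41, neither called, and shares its 3′ end with SAMD14. PDK4 had 2 counts in knockdown, 13 in siControl RAS and 0 in control libraries and was not tested.

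The pentose phosphate members were called in 1 direction with RAS. TKT had 102, 97.7 and 99.6 CPM in knockdown libraries, 93.3, 80.4 and 81.3 in siControl RAS libraries and 171, 166 and 176 in control libraries. Each siControl RAS library was below each control library by a wide margin. TKT, transketolase of the non-oxidative branch, was 2.01-fold lower with RAS (log2 change -1.0 ± 0.11 SE, edgeR adjusted p = 1.67e-09), with a change of 0.23 with knockdown (edgeR adjusted p = 0.184). TALDO1 had 111, 141 and 133 CPM in knockdown libraries, 129, 118 and 125 in siControl RAS libraries and 194, 190.1 and 211 in control libraries. TALDO1, transaldolase of the same branch, was 1.59-fold lower with RAS (log2 change -0.67 ± 0.10 SE, edgeR adjusted p = 3.65e-07), and knockdown and siControl RAS libraries overlapped, with a change of 0.05 (95% interval -0.15 to 0.24). PGD, of the oxidative branch, was between 49.4 and 55.9 CPM in all 9 libraries of these groups, with log2 changes of -0.06 (95% interval -0.31 to 0.18) and 0.03 (-0.21 to 0.28).

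**Figure D3:**
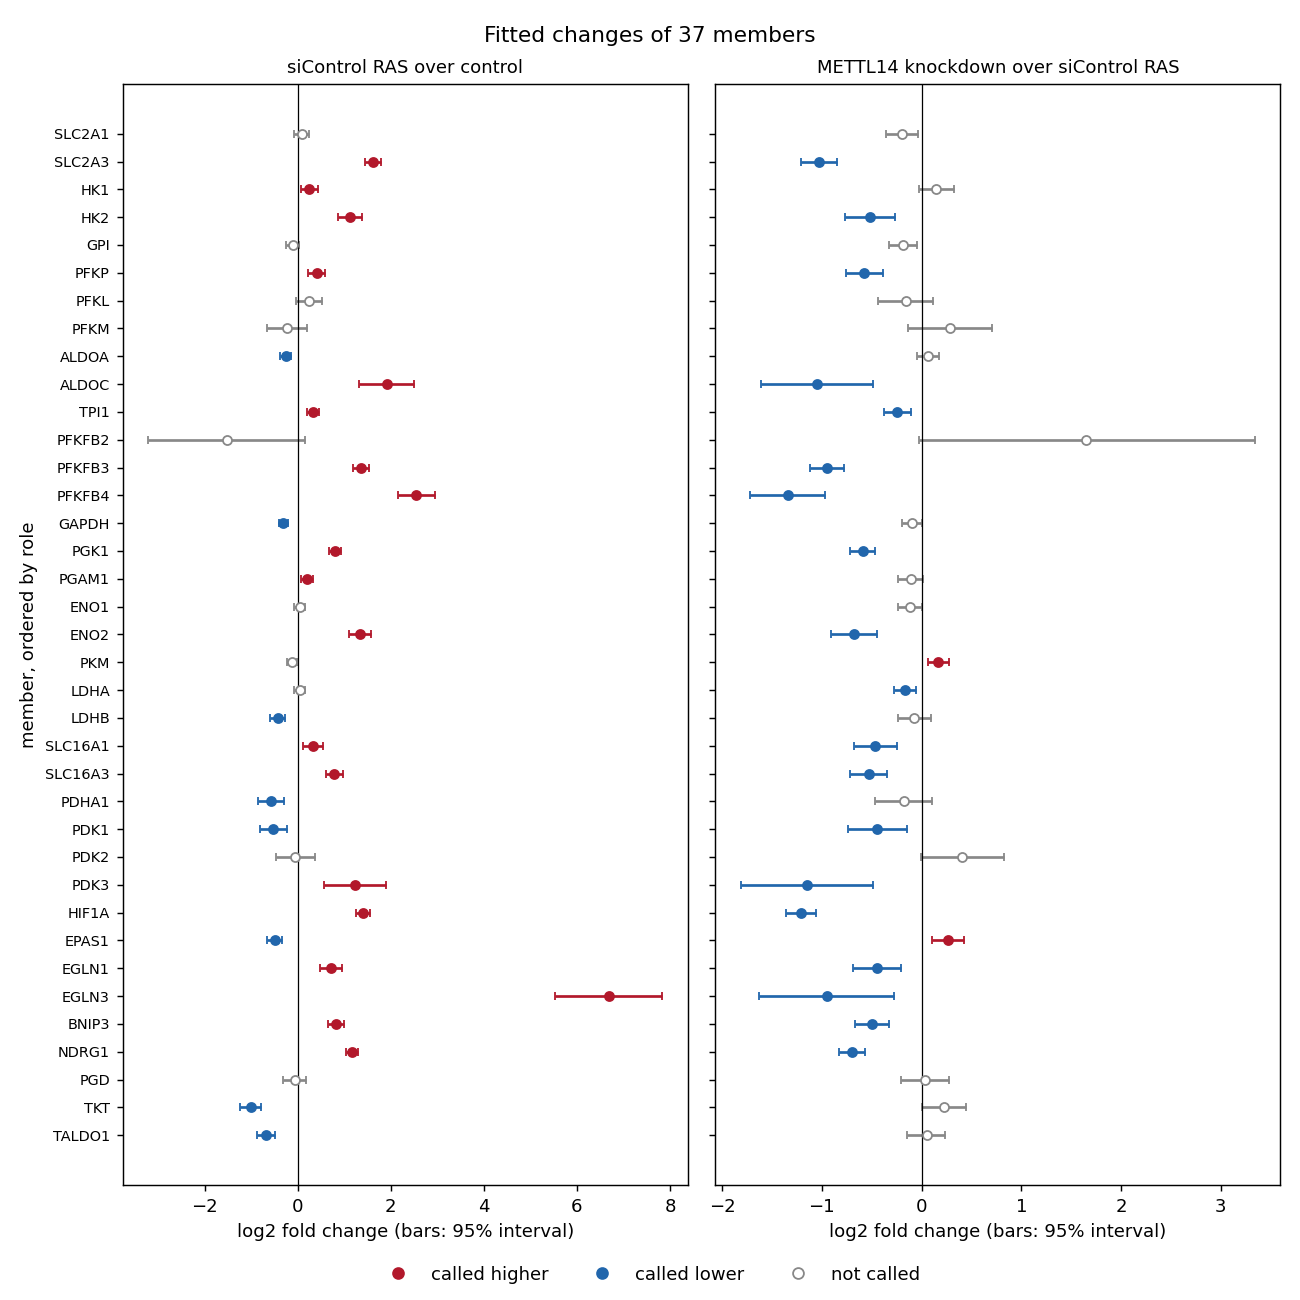
Points are fitted log2 fold changes of the 37 tested members with 95% intervals, for siControl RAS over control cells and for METTL14 knockdown over siControl RAS cells, with filled points for called members. With RAS 19 members were called higher and 8 lower, and with knockdown 2 higher and 19 lower, and both panels use the same siControl RAS libraries.

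Knockdown cells kept some differences from control cells. Relative to control, 13 members rose and 9 fell in knockdown cells, against 36.0% called among all tested genes (19.2% higher and 16.7% lower). The libraries did not overlap for 21 of 37 members, against 45.4% of all genes, and the median log2 change was 0.08 over the members and 0.00 over all genes. EGLN3 had a ratio of normalised counts of 63.4 over control (exact 95% interval 17.2 to 529.5), and PFKFB4 (log2 change 1.21, edgeR adjusted p = 1.1e-05), ENO2 (log2 change 0.66, edgeR adjusted p = 1.89e-05), HK2 (log2 change 0.61, edgeR adjusted p = 2.01e-04), SLC2A3 (log2 change 0.58, edgeR adjusted p = 1.95e-06), NDRG1 (log2 change 0.46, edgeR adjusted p = 5.19e-07), HK1 and PFKFB3 (log2 changes 0.40 and 0.40) also rose. HIF1A was close to its control level, with a log2 change of 0.18 (edgeR adjusted p = 0.049) that was lost when leaving out control replicate 1 or replicate 3 or any 1 knockdown replicate (edgeR adjusted p 0.0648 to 0.285). PDK1 (log2 change -0.97, edgeR adjusted p = 9.98e-07), TKT (log2 change -0.78, edgeR adjusted p = 4.18e-07), PDHA1 (log2 change -0.76, edgeR adjusted p = 4.57e-05), TALDO1 (log2 change -0.62, edgeR adjusted p = 2.02e-06) and LDHB (log2 change -0.51, edgeR adjusted p = 3.49e-06) fell most. The remaining called members were ALDOC, PGK1, SLC16A3 and BNIP3, which rose by 0.86, 0.21, 0.25 and 0.32, and GAPDH, GPI, EPAS1 and ALDOA, with log2 changes of -0.41, -0.30, -0.22 and -0.20. LDHA was not called here. It was called lower with upper-quartile factors, a mean of at least 5 CPM, DESeq2, limma-voom and a replicate block (log2 change -0.14 to -0.13). With no filter HIF1A and EPAS1 lost their calls, as did HIF1A, EPAS1 and ALDOC in a fit of the compared groups alone (edgeR adjusted p 0.0641 to 0.083). HIF1A also lost its call with upper-quartile factors (edgeR adjusted p = 0.0576) and SLC16A3 with limma-voom (limma-voom adjusted p = 0.0746). The call of ALDOC was lost when leaving out control replicate 2 or replicate 3 or knockdown replicate 1 or replicate 3 (edgeR adjusted p 0.0574 to 0.151), that of SLC16A3 when leaving out control replicate 2 or replicate 3 or knockdown replicate 1 or replicate 3 (edgeR adjusted p 0.0848 to 0.183) and that of EPAS1 when leaving out any 1 control replicate or knockdown replicate 1 or replicate 3 (edgeR adjusted p 0.0501 to 0.0941).

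Adding METTL14 back changed none of the 37 tested members by an amount that passed the test. In wild-type add-back relative to knockdown cells 0 members were called, where 0.621% of all genes were (0.326% higher and 0.296% lower). At an unadjusted p under 0.05 there were 7 members, all higher in wild-type add-back cells (HIF1A, PGK1, PFKFB3, LDHA, SLC16A3, PDK3 and GAPDH). DESeq2 called 2 of them, HIF1A (adjusted p = 0.0225) and PGK1 (adjusted p = 0.00813), and limma-voom called 0. The median log2 change was 0.12 over the members and 0.00 over all genes, with 29 members above 0, and libraries did not overlap for 11 members, against 13.0% of all genes. HIF1A had 358, 345 and 323 CPM in wild-type add-back libraries, 282, 291 and 280.5 in knockdown libraries and 692, 662 and 624 in siControl RAS libraries. All wild-type add-back libraries lay between the other groups, nearer to knockdown (log2 change 0.27 ± 0.07 SE, edgeR adjusted p = 0.114). PGK1 had 579, 554 and 564 CPM in wild-type add-back libraries, 508, 459 and 508 in knockdown libraries and 762, 728 and 736 in siControl RAS libraries. The order was the same for PGK1 (log2 change 0.20 ± 0.06 SE, edgeR adjusted p = 0.191). R298P add-back libraries, whose values are given further below, also lay between knockdown and siControl RAS libraries for both genes.

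In R298P add-back relative to knockdown cells 0 members were called as well, where 1.09% of all genes were (0.54% higher and 0.555% lower). At an unadjusted p under 0.05 there were 7 members, with HK2, PFKP, PFKFB4, PGK1 and ENO2 higher and ALDOA and TKT lower in R298P add-back cells. DESeq2 and limma-voom each called 1, TKT. The median log2 change was 0.07, with 24 members above 0, and libraries did not overlap for 9 members, against 15% of all genes. TKT had 67.8, 68.1 and 88.0 CPM in R298P add-back libraries, 102, 97.7 and 99.6 in knockdown libraries and 93.3, 80.4 and 81.3 in siControl RAS libraries. The R298P libraries were all below the knockdown libraries, and replicate 3 stood above the other 2 (log2 change -0.42 ± 0.11 SE, edgeR adjusted p = 0.0546). Without R298P add-back replicate 3 TKT was called, with an edgeR adjusted p = 0.00963.

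Wild-type and R298P add-back cells were then compared with each other, which tests the difference between both add-backs directly. No member was called, where 0.0222% of all genes were (0.0148% higher and 0.0074% lower in wild-type cells). At an unadjusted p under 0.05 there were 7 members, all higher in wild-type than in R298P cells (ALDOA, GAPDH, ENO1, HIF1A, BNIP3, TKT and TALDO1), DESeq2 called 1, ALDOA (adjusted p = 2.46e-04), and limma-voom 0. Libraries did not overlap for 7 members, against 11.7% of all genes, and the median log2 change was 0.05. ALDOA had 967, 911 and 928 CPM in wild-type add-back libraries, against 793, 791 and 797 in R298P add-back libraries. No library overlapped (log2 change 0.24 ± 0.06 SE, edgeR adjusted p = 0.249). For HIF1A the difference was 0.17 on the log2 scale (95% interval 0.02 to 0.31, edgeR adjusted p = 0.98), and for SLC2A3 -0.04 (-0.22 to 0.14), PFKFB3 0.13 (-0.04 to 0.30) and PFKFB4 -0.21 (-0.58 to 0.17).

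**Figure D4:**
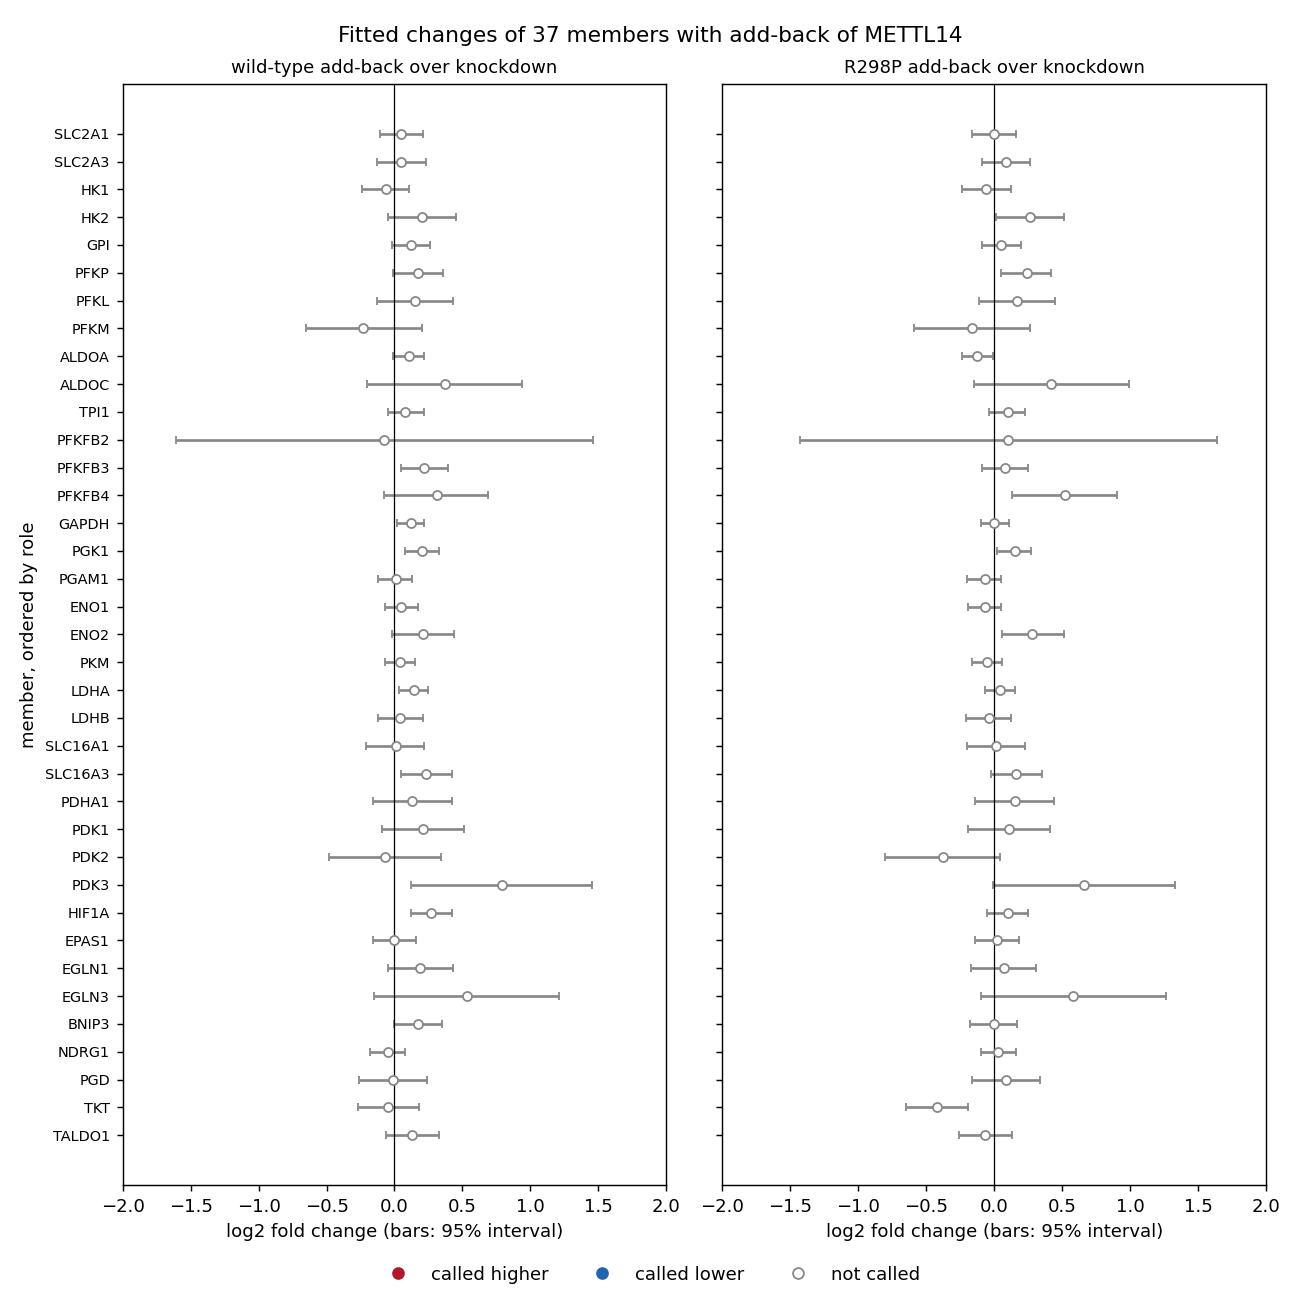
Points are fitted log2 fold changes of the 37 tested members with 95% intervals, for wild-type add-back over knockdown and for R298P add-back over knockdown, both against the same knockdown libraries. All points are open, since no member was called in either comparison, and the widest intervals belong to PFKFB2, with 161 counts over all libraries.

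Set against siControl RAS cells, both add-back groups differed in many members. These comparisons differ in the siRNA and in the lentiviral METTL14, and the parts of both cannot be told apart. Wild-type add-back cells had 3 members higher and 11 lower, against a share of 13.0% among all genes (6.32% higher, 6.67% lower), and R298P add-back cells had 1 higher and 14 lower, against 13.4% (6.27% higher, 7.14% lower). Libraries did not overlap for 20 and 27 members, against 28.7% and 29.9% of all genes. Both use the same siControl RAS libraries. In the leave-one-out fits 10 to 14 members were called for wild-type and 10 to 15 for R298P add-back cells. SLC2A3 had 179, 178 and 169.9 CPM in wild-type add-back libraries, 172, 189 and 181 in R298P add-back libraries and 361, 351 and 330.5 in siControl RAS libraries. Both add-backs stood well below siControl RAS (log2 change -0.98, edgeR adjusted p = 1.19e-10 for wild-type; log2 change -0.95, edgeR adjusted p = 3.23e-10 for R298P). PFKFB3 had 192, 154 and 165 CPM in wild-type add-back libraries, 161, 156 and 149 in R298P add-back libraries and 292, 271 and 287 in siControl RAS libraries. PFKFB4 had 26.1, 26.6 and 23.9 CPM in wild-type add-back libraries, 33.7, 28.4 and 26.1 in R298P add-back libraries and 53.5, 49.5 and 54.2 in siControl RAS libraries. Neither overlapped siControl RAS, with log2 changes for PFKFB3 of -0.74 in wild-type and -0.87 in R298P add-back cells, and for PFKFB4 of -1.04 in wild-type and -0.83 in R298P add-back cells. HIF1A had 313, 297 and 305 CPM in R298P add-back libraries, and its log2 change against siControl RAS was -0.95 with wild-type and -1.11 with R298P METTL14. NDRG1 had 976, 1009 and 1032 CPM in wild-type add-back libraries, 999, 1055 and 1126 in R298P add-back libraries and 1788, 1633 and 1655 in siControl RAS libraries. NDRG1 fell in both (log2 change -0.75, edgeR adjusted p = 6.25e-11 for wild-type; log2 change -0.67, edgeR adjusted p = 7.79e-10 for R298P).

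BNIP3 had 203, 189 and 204 CPM in wild-type add-back libraries, against 186, 169.7 and 171 in R298P add-back libraries. BNIP3 was lower than in siControl RAS cells in both (log2 change -0.33 with wild-type and -0.50 with R298P METTL14), and the wild-type call was lost when leaving out siControl RAS replicate 2 or wild-type add-back replicate 2 (edgeR adjusted p 0.0505 to 0.0647). ENO2 had 119, 106 and 157 CPM in wild-type add-back libraries, against 129.9, 128 and 143 in R298P add-back libraries. ENO2 was lower in both as well (log2 change -0.47 with wild-type and -0.40 with R298P METTL14), with the wild-type call lost when leaving out wild-type add-back replicate 2 (edgeR adjusted p = 0.0509) and the R298P call lost when leaving out siControl RAS replicate 3 or R298P add-back replicate 1 or replicate 2 (edgeR adjusted p 0.052 to 0.0681). PFKP had 136, 126 and 148 CPM in wild-type add-back libraries, against 134, 139.5 and 155 in R298P add-back libraries. PFKP was lower in both (log2 change -0.40 with wild-type and -0.34 with R298P METTL14), and the R298P call was lost when leaving out siControl RAS replicate 1 or R298P add-back replicate 1 (edgeR adjusted p 0.062 to 0.0629). SLC16A1 had 83.9, 96.1 and 102 CPM in wild-type add-back libraries, against 99.1, 92.0 and 92.5 in R298P add-back libraries. SLC16A3 had 565, 505 and 636 CPM in wild-type add-back libraries, against 518, 532 and 576 in R298P add-back libraries. Both lactate transporters were below siControl RAS in both add-backs, with log2 changes for SLC16A1 of -0.46 in wild-type and -0.46 in R298P add-back cells, and for SLC16A3 of -0.30 in wild-type and -0.37 in R298P add-back cells. The wild-type call of SLC16A3 was lost when leaving out siControl RAS replicate 1 or replicate 3 or wild-type add-back replicate 1 or replicate 2 (edgeR adjusted p 0.069 to 0.139). PGK1 had 563, 538 and 533 CPM in R298P add-back libraries and was called lower in both (log2 change -0.39 with wild-type and -0.45 with R298P METTL14). EPAS1 rose in both: EPAS1 had 191, 177 and 169 CPM in wild-type add-back libraries, against 184, 191 and 170.3 in R298P add-back libraries. Its log2 changes were 0.27 with wild-type and 0.29 with R298P METTL14, with the wild-type call lost when leaving out siControl RAS replicate 1 or replicate 3 or wild-type add-back replicate 1 (edgeR adjusted p 0.0508 to 0.11) and the R298P call lost when leaving out R298P add-back replicate 2 (edgeR adjusted p = 0.064).

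Other members were called in 1 of the add-backs, and the difference between both was not called for any of them. PKM had 2538, 2651 and 2623 CPM in wild-type add-back libraries, against 2341, 2449 and 2553 in R298P add-back libraries. PKM was higher in wild-type add-back than in siControl RAS cells (log2 change 0.21, edgeR adjusted p = 0.00696), as was ALDOA (log2 change 0.17, edgeR adjusted p = 0.0385), whose call was lost when leaving out any 1 siControl RAS replicate or any 1 wild-type add-back replicate (edgeR adjusted p 0.0522 to 0.161). EGLN1, PGAM1 and ENO1 were lower in R298P add-back than in siControl RAS cells. EGLN1 had 77.4, 76.9 and 65.4 CPM in wild-type add-back libraries, against 75.7, 63.5 and 62.6 in R298P add-back libraries. Its change was -0.39 with R298P, a call lost when leaving out siControl RAS replicate 1 or R298P add-back replicate 2 or replicate 3 (edgeR adjusted p 0.113 to 0.137), and -0.26 with wild-type METTL14. PGAM1 had 630.1, 667 and 686 CPM in wild-type add-back libraries, 646, 611 and 620.2 in R298P add-back libraries and 727, 682 and 727 in siControl RAS libraries. The change of PGAM1 was -0.19 with R298P, lost when leaving out siControl RAS replicate 1 or replicate 3 or any 1 R298P add-back replicate (edgeR adjusted p 0.0535 to 0.154), and -0.11 with wild-type METTL14. ENO1 had 1885, 1789 and 1927 CPM in wild-type add-back libraries, against 1702, 1656 and 1798 in R298P add-back libraries. ENO1 changed by -0.19 with R298P, lost when leaving out siControl RAS replicate 1 or replicate 3 or R298P add-back replicate 1 or replicate 2 (edgeR adjusted p 0.0526 to 0.126), and by -0.07 with wild-type METTL14.

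Further genes of the same pathways were counted for context, in lists chosen with earlier results of these data known. The counts are therefore descriptive. The shares over all tested genes were 24.0% higher and 21.9% lower with RAS, and 7.47% higher and 8.06% lower with knockdown. Of 26 other HIF target genes, all tested, 23 rose and 2 fell in siControl RAS relative to control cells (median log2 change 1.38, against 0.00 over all genes), and 0 rose and 15 fell in knockdown relative to siControl RAS cells (median -0.54). HILPDA, a lipid droplet protein gene, rose with RAS by 3.04 and changed by -1.45 with knockdown, and VEGFA, the angiogenic growth factor, rose with RAS by 2.44. CA9, a carbonic anhydrase, rose by 5.21 with RAS. Its level was low and spread widely in knockdown libraries, at 2.68 ± 2.90 CPM (SD, n = 3). DDIT4, an inhibitor of mTORC1, fell by 1.54 and CA12, another carbonic anhydrase, fell by 1.39 with knockdown. The 2 that fell with RAS, named after their values were seen, were PLIN2 and CITED2, with log2 changes of -0.44 and -0.96. Of 7 other glycolysis genes tested, 4 rose and 1 fell with RAS (median 0.96) and 0 rose and 4 fell with knockdown (median -0.62). BPGM, which makes 2,3-bisphosphoglycerate, changed by 2.24 and -1.06, and ENO3, the muscle enolase, by 1.35 and -1.53, while PGM2, a phosphoglucomutase family member, fell with RAS by 1.35. Of 13 other glucose and lactate transport genes tested, 7 rose and 2 fell with RAS (median 0.66) and 0 rose and 2 fell with knockdown (median -0.12). SLC16A6 changed by 3.33 and -1.10, and SLC2A13, a myo-inositol transporter, by 1.38 and -1.03. SLC2A4 had 28 counts in knockdown, 13 in siControl RAS and 0 in control libraries. With the control group set to a floor of 3 counts, siControl RAS over control gave a ratio of 4.38. That ratio leaves out the counting error of so few counts.

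Of 29 tested genes from pyruvate entry to the citric acid cycle, 2 rose and 15 fell in siControl RAS relative to control cells (median log2 change -0.35), and 2 rose and 1 fell in knockdown relative to siControl RAS cells (median 0.00). CS, citrate synthase, changed by -1.31 with RAS and 0.68 with knockdown, FH, fumarase, by -1.13 with RAS, and MPC1, a subunit of the mitochondrial pyruvate carrier, by -1.08 with RAS. Of 12 gluconeogenesis and glycogen genes tested, 3 rose and 3 fell with RAS (median -0.04) and 1 rose and 1 fell with knockdown (median -0.02), with GYG1, glycogenin, at -1.57 with RAS. GBE1 stands in this list and among the HIF targets. Of 8 other pentose phosphate genes tested, 1 rose and 2 fell with RAS (median -0.19) and 1 rose and 0 fell with knockdown (median 0.23). PRPS1, which makes phosphoribosyl pyrophosphate, changed by -2.42 with RAS and 1.14 with knockdown. Of 11 HIF regulator genes tested, 4 rose and 2 fell with RAS (median 0.02), among them CUL2 (-0.79), VHL (0.76) and ARNT (0.73), and 2 rose and 0 fell with knockdown (median 0.10), ARNT2 (1.18) and ELOC (0.33). Of 12 regulators of the glucose response tested, 3 rose and 1 fell with RAS (median 0.06) and 1 rose and 1 fell with knockdown (median 0.01), with PRKAA2, a catalytic subunit of AMPK, at 2.05 and -1.11.

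**Figure D5:**
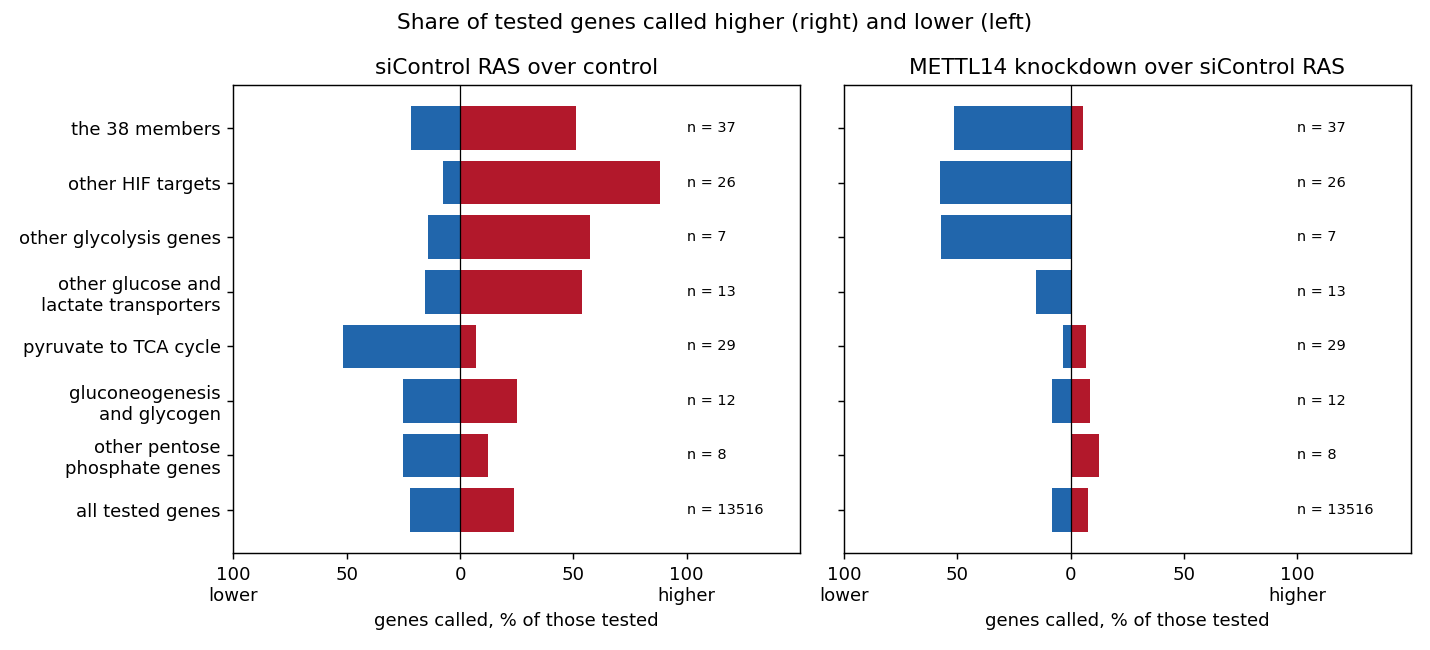
Bars give the percentage of tested genes called higher (to the right) and lower (to the left) in each list and over all 13516 tested genes, for siControl RAS over control and for knockdown over siControl RAS cells. Of the other HIF targets 23 of 26 were called higher with RAS and 15 of 26 lower with knockdown. Of 29 genes from pyruvate to the citric acid cycle 15 were called lower with RAS. The lists were chosen with earlier results of these data known.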

How the data were processed

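QuantSeq libraries of IMR90 cells, 3 in each of 5 groups, were compared. The authors deposited whole-number counts per Ensembl gene, not normalised. Per the submitters' processing notes, hg19, RSEM 1.2.12 and Bowtie2 were used, without a statement of the step each served. The gene annotation and the strand setting behind the counts were not stated. RSEM estimates need not be whole, so rounding before deposit may have occurred. Symbols were matched by Ensembl ID for 52301 of 57736 rows, which hold 99.2% of the counts, and all 38 members matched.

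All libraries were fitted in a single model with 1 coefficient per group in edgeR 4.0.16 (R 4.3.3), with TMM factors, the default expression filter by group and the robust quasi-likelihood test, two-sided, with 10 residual degrees of freedom and Benjamini-Hochberg adjustment over 13516 genes. The biological coefficient of variation was 16.7%. Fitted changes, standard errors and 95% intervals are on the log2 scale. The script was tested on simulated data with known changes. An exact permutation test of 3 against 3 libraries cannot go below p = 0.1 and was not used. Alternatives were RLE and upper-quartile factors, no filter, a mean of at least 5 CPM, DESeq2 1.42.0, limma-voom (limma 3.58.1), a fit of the compared groups alone, a replicate block, and leaving out each library. Adding the pseudogene rows to BNIP3 was chosen after seeing the data.

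Members, gene lists and tests were chosen with earlier results of these data known. Every member is named. By rule, values in each library are given for the called members with the largest changes, up to 8 per direction and comparison, and for those called in add-back comparisons. They stand in order of role, and further members were added. From each list up to 3 called genes with the largest changes are named per comparison, except PLIN2 and CITED2. Some list genes are not reported here by name. TXNIP and PECAM1 matched no row and were not analysed here. Libraries within a group differed beyond sampling noise (chi-square per degree of freedom 3.52 to 8.47). Same-numbered libraries of different groups had correlations of deviations from -0.101 to 0.114 over 30 pairs, so they were treated as unpaired. With 4917661 to 7763084 counts per library, intervals of count ratios cover counting error only. RefSeq promoters are of GRCh38.p14, a later build than that of the counts, and served for sequence only.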

Additional observations from a re-analysis of the deposited data

How the results depend on the processing

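Over RLE and upper-quartile factors, no filter, a mean of at least 5 CPM, DESeq2, limma-voom and a fit of the compared groups alone, the counts of members called for siControl RAS against control, knockdown against siControl RAS, knockdown against control and each add-back against siControl RAS stayed within 1.5 times those reported, and no member that was called changed sign. For R298P add-back against knockdown the count was 1 (TKT), in place of 0, with no filter, a mean of at least 5 CPM, DESeq2 and limma-voom. For wild-type add-back against knockdown it was 2 with DESeq2, and for wild-type against R298P add-back 1 with DESeq2. The cause was not tested.

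Leaving out single libraries gave 26 to 27 members for siControl RAS against control, 16 to 19 for knockdown against siControl RAS, 18 to 22 for knockdown against control, 10 to 14 and 10 to 15 for wild-type and R298P add-back against siControl RAS, 0 to 1 for R298P add-back against knockdown, and 0 in each such fit for the other 2 comparisons of add-backs.

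The labels tie no replicate number to a shared culture or day, and not every same-numbered pair correlated above 0.1, so the numbers were not used as pairs. Of 15 libraries 11 correlated best with their own number, where 5 would if numbers carried nothing, a hint from the data of an effect shared by number and not a fact of the design. With a replicate block 27, 21 and 23 members were called for siControl RAS against control, knockdown against siControl RAS and knockdown against control. The block gave 14 and 15 for wild-type and R298P add-back against siControl RAS, 0 for wild-type add-back against knockdown and between add-backs, and 1 (TKT) for R298P add-back against knockdown. PFKFB2 (161 counts in all) and PDK4 (17) had few counts, and EGLN3 had 2 in control libraries. Members whose levels overlap neighbouring genes rest on counts that cannot be assigned by strand.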
